A study of Homo sapiens with 4 samples.

Results

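The genes described here are the Wnt ligands together with the proteins that release, receive, restrain and execute their signal. They were 60 gene symbols matched to the symbol column of the expression table. The matching used no measured value, but the symbols were listed with earlier results of these data known. The table held 59 of the 60 among its 58274 gene identifiers. SFRP3 was not found under that symbol, and the table lists this gene under its other name, FRZB. The symbols fall into 19 ligands, 2 genes of ligand lipidation and secretion, 12 receptors, 7 R-spondins and R-spondin receptors, 9 secreted inhibitors, 6 membrane and cytoplasmic inhibitors and 5 nuclear effectors.

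A Wnt protein is given a lipid in the secretory pathway, carried to the cell surface and bound by a Frizzled receptor, which for the beta-catenin branch acts with LRP5 or LRP6. Receptor engagement stops the Axin complex from destroying beta-catenin, which then enters the nucleus and turns TCF and LEF factors from repression to activation. Other Wnt proteins act mainly without beta-catenin, on cell shape and polarity. In the embryo Wnt signaling is required for the primitive streak and mesoderm, and several of its target genes encode inhibitors that feed back on the pathway.

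RNA was measured in 4 populations of the human iPSC (induced pluripotent stem cell) line BC1, with 1 RNA sequencing library each. Undifferentiated BC1 cells were compared with cells sorted as APLNR+ at day 2, as CD31+CD34+ at day 5 and as CD43+ at day 8 of a stepwise culture toward blood. Activin A and BMP4 were given up to day 2 and VEGF with bFGF after that, so the APLNR+ cells were taken at the end of the mesoderm step, and no Wnt protein or Wnt inhibitor is listed among the additions. APLNR marks mesoderm, CD31 with CD34 marks hemogenic endothelial progenitors (HEPs), and CD43 marks hematopoietic progenitor cells (HPCs). The cells all stem from 1 line, so variation between lines was not sampled. With 1 library per population there was no replicate check and no test between populations, and every interval below covers counting error only.

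Levels are FPKM, which are fragments per kilobase of transcript, scaled to a fixed number of mapped fragments, and so can be compared between genes. The libraries held between 19700000 and 23600000 mapped fragments, inferred from the spacing of the lowest FPKM values, and 1 FPKM of a 2000-base transcript stood for 34.0 to 40.7 fragments. Each sort marker gene was higher in the cells sorted for it than in the population before them. APLNR was at 0.782 FPKM in BC1 and 1073 in APLNR+ cells, PECAM1 (CD31) at 0.460 in APLNR+ and 93.1 in CD31+CD34+ cells, CD34 at 0.645 and 102 in the same libraries, and SPN (CD43) at 11.7 in CD31+CD34+ and 92.4 in CD43+ cells. These markers also overlapped between stages. APLNR was still at 209 FPKM in CD31+CD34+ cells, CD34 was at 42.6 in CD43+ cells, and PECAM1 was highest in CD43+ cells, at 126. The pluripotency gene POU5F1 was still at 573 FPKM in APLNR+ cells, against 1997 in BC1, and NES made up nearly all of the signal of the 4 neural markers in every library.

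Of the 59 measured genes, 40 reached 1 FPKM in at least 1 library, and the other 19 stayed at or below 0.936 FPKM everywhere. Those 19 were WNT1, WNT2, WNT2B, WNT3A, WNT7A, WNT7B, WNT8B, WNT9A, WNT9B, WNT10A, WNT10B, WNT16, RSPO1, RSPO2, RSPO3, DKK2, DKK4, SFRP4 and RNF43. At 1 FPKM or more there were 27 Wnt genes in BC1, 36 in APLNR+ cells, 34 in CD31+CD34+ cells and 28 in CD43+ cells. Of the 17137 genes of any kind that reached 1 FPKM somewhere, 14335, 13946, 14128 and 13554 did so in these libraries, in that order. In all 4 libraries, 22 of the 40 Wnt genes reached that level, and the share of all genes that did was not counted. The highest level lay in BC1 for 10 of the 40 genes, in APLNR+ cells for 21, in CD31+CD34+ cells for 5 and in CD43+ cells for 4. Among all 17137 genes that reached 1 FPKM somewhere, 27.7% were highest in BC1, 22.7% in APLNR+ cells, 25.5% in CD31+CD34+ cells and 24.0% in CD43+ cells.

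A gene is said below to have risen or fallen when log2(FPKM + 1) changed by at least 1 between consecutive populations, and other differences are given as values. From BC1 to APLNR+ cells, 20 of the 40 Wnt genes rose, against 9.15% of all genes tested, and 5 fell, against 9.32%. From APLNR+ to CD31+CD34+ cells, 4 rose, against 13% of all genes, and 18 fell, against 11.4%. From CD31+CD34+ to CD43+ cells, 4 rose, against 7.63%, and 11 fell, against 13.5%. The median change of the 40 genes on this log2 scale was 0.90, then -0.90, then -0.25, and that of all genes tested was 0, 0.01 and -0.08. Over all 59 measured Wnt genes the medians were 0.06, -0.10 and -0.10. WNT4, WNT6, WNT8A, LGR5 and DKK1 reached 1 FPKM in APLNR+ cells alone, so this filter favored their rise and fall around that library. Because these are bulk libraries, fewer cells that express a gene and less RNA per cell cannot be told apart.

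**Figure D1:**
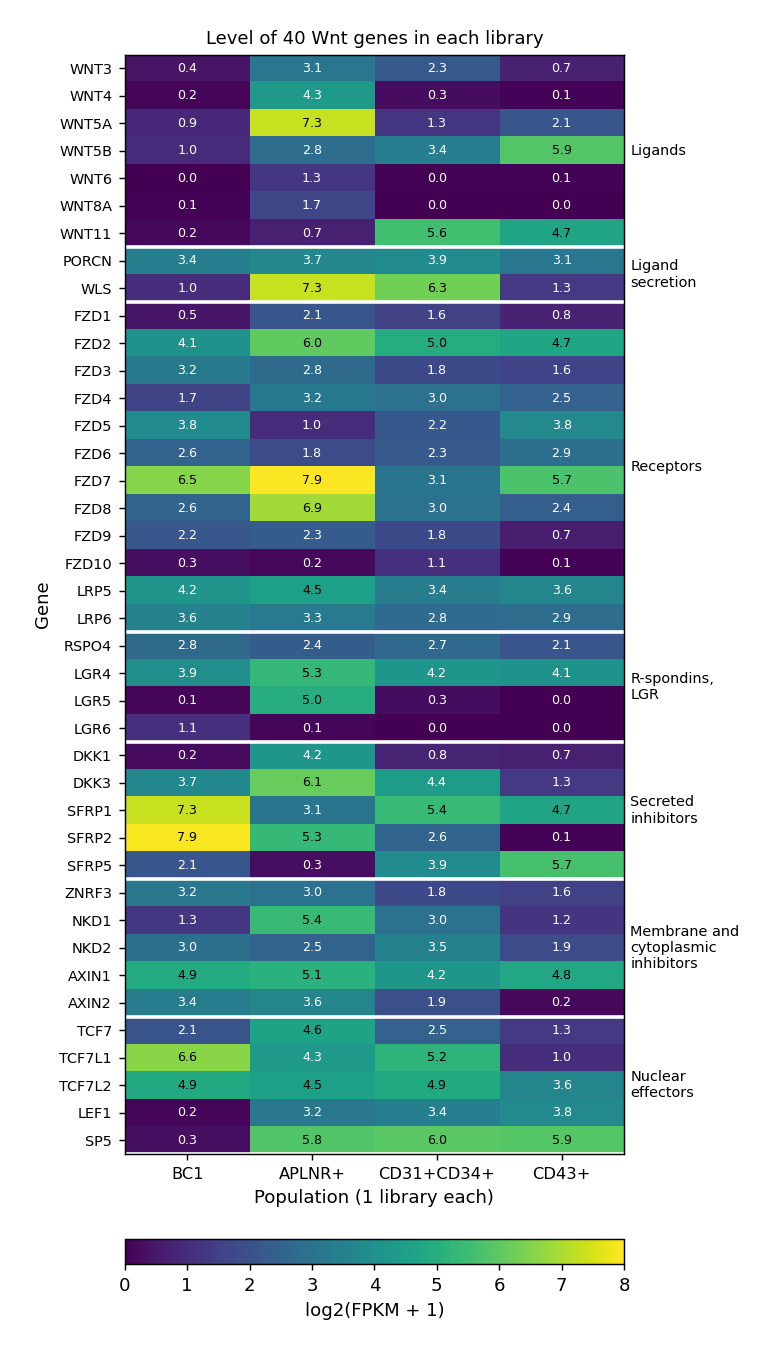
Level of the 40 Wnt genes that reached 1 FPKM, as log2(FPKM + 1), in rows grouped by role and with 1 column per library in order of differentiation. The APLNR+ column holds the highest level of 21 genes, while SFRP1 and SFRP2 stand out in BC1 and WNT5B and SFRP5 in CD43+ cells.

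The plot of levels shows each gene at every stage, and the plot of changes sets the same genes against all others. At the first transition the ligands lie on the side of higher levels, and the secreted inhibitors lie on both sides with none near 0.

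**Figure D2:**
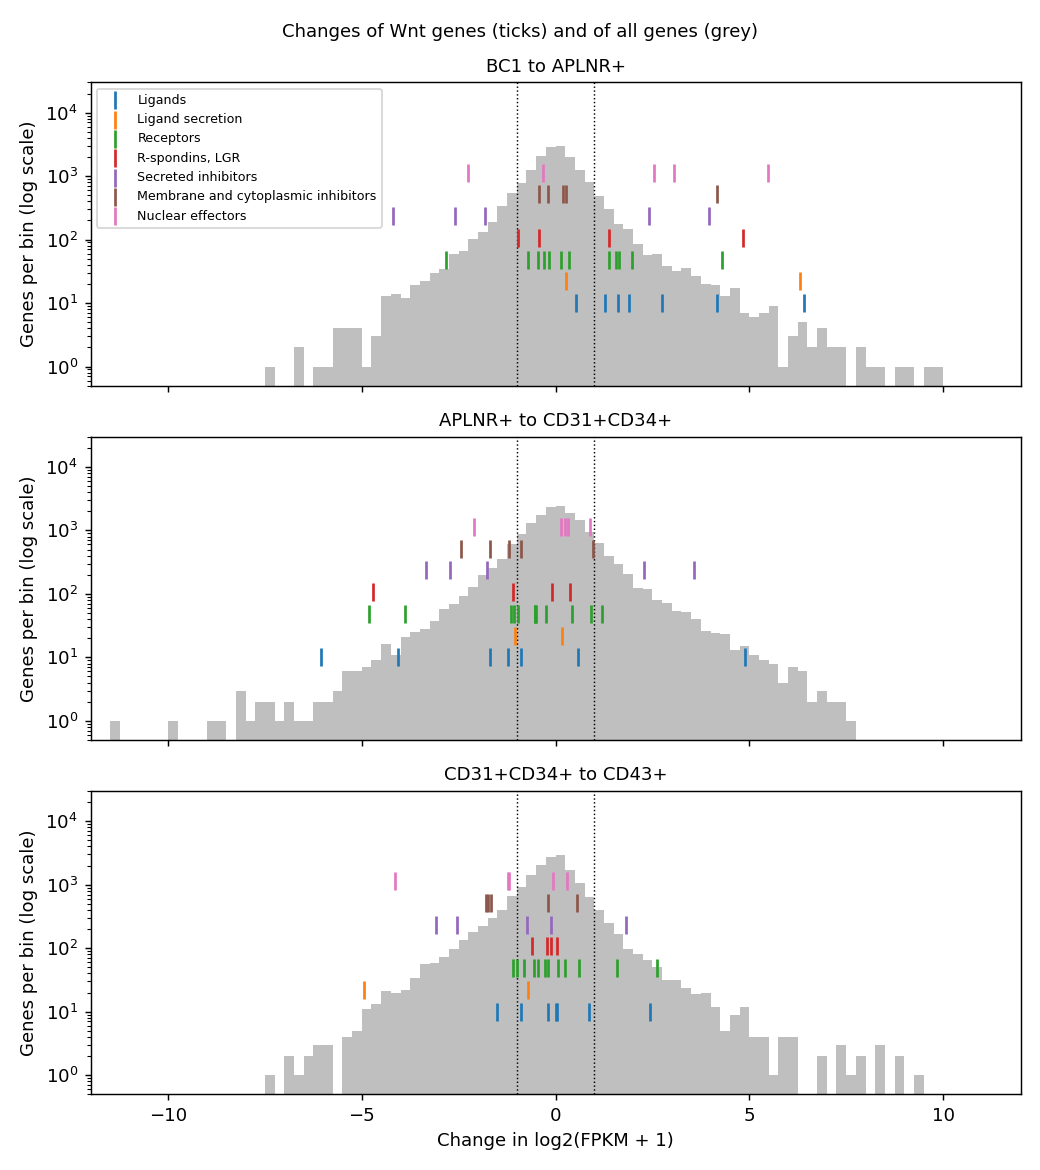
Change in log2(FPKM + 1) at each of the 3 transitions, with all 17137 genes tested in grey (genes per bin, log scale) and each of the 40 Wnt genes as a coloured tick whose height only separates the roles. Dotted lines mark a change of 1 in either direction, which 20 Wnt genes passed upward at the first transition and 18 passed downward at the second.

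Of the 12 Wnt genes that rose by at least 2 on this scale from BC1 to APLNR+ cells, 9 had a promoter in the RefSeq table (GRCh38.p14), and 3 of these held a word bound by TCF and LEF factors in the 250 bases before the start site. The words searched, on both strands, were CTTTGAA and CTTTGAT as well as CTTTGTA and CTTTGTT, which share their first 5 letters, and no other motif was searched. The 3 promoters are shown because they held such a word and their genes rose at the first transition, with the words in capitals (TTCAAAG and AACAAAG are reverse complements) and each sequence read 5′ to 3′ on the plus strand. The DKK1 window is chr10:52314031-52314280, the SP5 window is chr2:170715087-170715336, and the TCF7 window, chr5:134123368-134123617, lies inside the gene's locus before a downstream start site.
DKK1: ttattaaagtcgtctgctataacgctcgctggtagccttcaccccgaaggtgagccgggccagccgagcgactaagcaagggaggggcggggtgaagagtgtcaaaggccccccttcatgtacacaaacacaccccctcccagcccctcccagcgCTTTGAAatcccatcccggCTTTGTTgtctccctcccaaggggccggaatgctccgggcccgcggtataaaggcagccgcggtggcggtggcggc
SP5: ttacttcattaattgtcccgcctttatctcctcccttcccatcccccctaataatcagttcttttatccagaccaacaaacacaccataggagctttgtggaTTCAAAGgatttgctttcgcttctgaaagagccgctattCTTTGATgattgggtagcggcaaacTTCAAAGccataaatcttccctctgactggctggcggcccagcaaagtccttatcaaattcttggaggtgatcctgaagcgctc
TCF7: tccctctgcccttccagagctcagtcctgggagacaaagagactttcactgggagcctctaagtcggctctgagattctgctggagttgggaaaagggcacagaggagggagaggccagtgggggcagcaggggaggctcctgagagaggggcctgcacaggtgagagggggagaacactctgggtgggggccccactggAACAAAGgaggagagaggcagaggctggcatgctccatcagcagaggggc
Counted from the start site, the words began at -95 and -76 in DKK1, at -148, -109 and -84 in SP5 and at -50 in TCF7. Of all 35116 RefSeq promoter windows of this length, 12.0% held at least 1 such word, as did 4 of the 52 windows of the Wnt genes (7.69%). The match outside this set was in 1 of the 3 windows of TCF7L2. A match is a description of the letters and not of a bound site. No window was listed for AXIN2, DKK2, DKK3, DKK4, FZD2, FZD3, FZD6, FZD7, FZD10, LGR5, LRP6, NKD1, RSPO2, SFRP1, WNT7B, WNT10B, WNT11 and ZNRF3.

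Among the ligands, each stage after BC1 was led by a different gene. No ligand reached 1 FPKM in BC1, where the 19 ligands summed to 4.63 FPKM. The sum was 198 FPKM in APLNR+ cells, of which WNT5A made up 80.5%. It was 63.2 FPKM in CD31+CD34+ cells, where WNT11 made up 73.8%, and 86.3 FPKM in CD43+ cells, where WNT5B made up 65.9%. Of the 7 ligands that reached 1 FPKM, 6 rose at the first transition, 1 rose and 4 fell at the second, and 1 rose and 1 fell at the third. As shares of the 7, the rises were 85.7%, 14.3% and 14.3%, against 9.15%, 13% and 7.63% of all genes tested. The falls were 0%, 57.1% and 14.3%, against 9.32%, 11.4% and 13.5%. WNT4, WNT6 and WNT8A passed the filter through APLNR+ cells alone, so the filter favored their rise and fall around that library. Over all 19 ligands the median changes were 0.03, -0.03 and 0.

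WNT5A (ENSG00000114251.14, chr3:55465715-55490539, minus strand), which acts mainly without beta-catenin, stood at 0.876 FPKM in BC1, 159.5 in APLNR+ cells, 1.41 in CD31+CD34+ cells and 3.40 in CD43+ cells. Its level was high in APLNR+ cells alone. The rise was 182-fold (95% interval 149 to 223) and the fall after it 113-fold (97.8 to 130). Its change on the log2 scale exceeded that of 99.9% of all genes tested at the first transition.

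WNT11 (ENSG00000085741.12, chr11:76186325-76210736, minus strand), a ligand known from heart and mesoderm development, was at 0.122 FPKM in BC1, 0.615 in APLNR+ cells, 46.6 in CD31+CD34+ cells and 24.5 in CD43+ cells. It rose 75.9-fold (49.7 to 121) between APLNR+ and CD31+CD34+ cells and was 1.90-fold lower (1.75 to 2.06) in CD43+ cells, which is under the threshold but passed it after rescaling to TPM, at -1.03 on the log2 scale. Of the gene's exonic bases, 204 are shared with AP000785.1, a gene on the other strand at no more than 1.69 FPKM. Where WNT11 rose, the 5 endothelial markers (CDH5, TIE1, TEK, KDR and PECAM1) went from a sum of 74.1 to 1196 FPKM. Markers of other cell types were mixed there, some higher and some lower. The 3 cardiac markers summed to 22.7 FPKM in BC1, 11.0 in APLNR+ cells, 70.3 in CD31+CD34+ cells and 1.44 in CD43+ cells. NKX2-5 alone gave 69.2 FPKM in CD31+CD34+ cells, where TNNT2 was at 0.178 and MYH6 at 0.928. The 5 stromal and smooth muscle markers, all of them at 1 FPKM or more in the first 3 libraries, summed to 165, 162, 318 and 64.1 FPKM. Between APLNR+ and CD31+CD34+ cells COL1A1 went from 22.9 to 184 FPKM and ACTA2 from 2.19 to 48.3, while PDGFRA went from 14.3 to 4.96, TAGLN from 117 to 74.7 and PDGFRB from 5.50 to 6.69. The part of any of these cell types in the WNT11 result was not tested.

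WNT5B (ENSG00000111186.12, chr12:1529891-1647243, plus strand), the close relative of WNT5A, was at 0.936 FPKM in BC1, 6.19 in APLNR+ cells, 9.73 in CD31+CD34+ cells and 56.9 in CD43+ cells. It was higher at every stage than at the one before, and it was the only ligand with its highest level in CD43+ cells. It rose 6.61-fold (4.66 to 9.76) at the first transition and 5.85-fold (5.28 to 6.50) at the third.

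The remaining ligands that reached 1 FPKM peaked in APLNR+ cells. WNT3, a beta-catenin ligand required for mesoderm in the mouse, was at 0.328, 7.86, 3.77 and 0.676 FPKM in BC1, APLNR+, CD31+CD34+ and CD43+ cells, in that order. WNT4, known from kidney and gonad development, was at 0.113, 18.9, 0.201 and 0.0520 FPKM. These 2 ligands differed after the peak, since WNT4 fell 94.4-fold (58.4 to 162) on entry into the CD31+CD34+ population and WNT3 was 2.08-fold lower (1.80 to 2.42), which at -0.89 on the log2 scale is under the threshold and reached -1.04 with a pseudocount of 0.1. WNT8A, a mesoderm ligand, was at 0.0543, 2.24, 0 and 0 FPKM, so it was at least 21.6-fold lower in CD31+CD34+ cells than in APLNR+ cells, counted from a floor of 3 fragments. WNT6 was at 0, 1.42, 0.0297 and 0.0652 FPKM, at least 13.3-fold higher in APLNR+ cells than in BC1.

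Ligand release was split between a gene that changed and a gene that did not pass the threshold. WLS, the carrier that brings lipidated Wnt proteins to the surface, was at 1.04 FPKM in BC1, 160.3 in APLNR+ cells, 77.5 in CD31+CD34+ cells and 1.54 in CD43+ cells. It was high in the middle 2 libraries and near 1 FPKM in the outer 2. The rise was 154-fold (116 to 206), the next step a fall of 2.07-fold (1.99 to 2.14) and the last a fall of 50.4-fold (40.6 to 63.6). PORCN, the enzyme that adds the lipid, was at 9.75, 12.1, 13.6 and 7.87 FPKM and passed the threshold nowhere. In CD43+ cells a summed ligand level of 86.3 FPKM thus stood beside 1.54 FPKM of WLS. At the last step the stromal and smooth muscle sum went from 318 to 64.1 FPKM and the endothelial sum from 1196 to 256. From BC1 to CD31+CD34+ cells the stromal and smooth muscle sum was 165, 162 and 318 FPKM and the endothelial sum 48.5, 74.1 and 1196. WLS was at 1.04, 160.3 and 77.5 FPKM in the same libraries. The part of these cell types in the WLS levels was not tested.

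**Figure D3:**
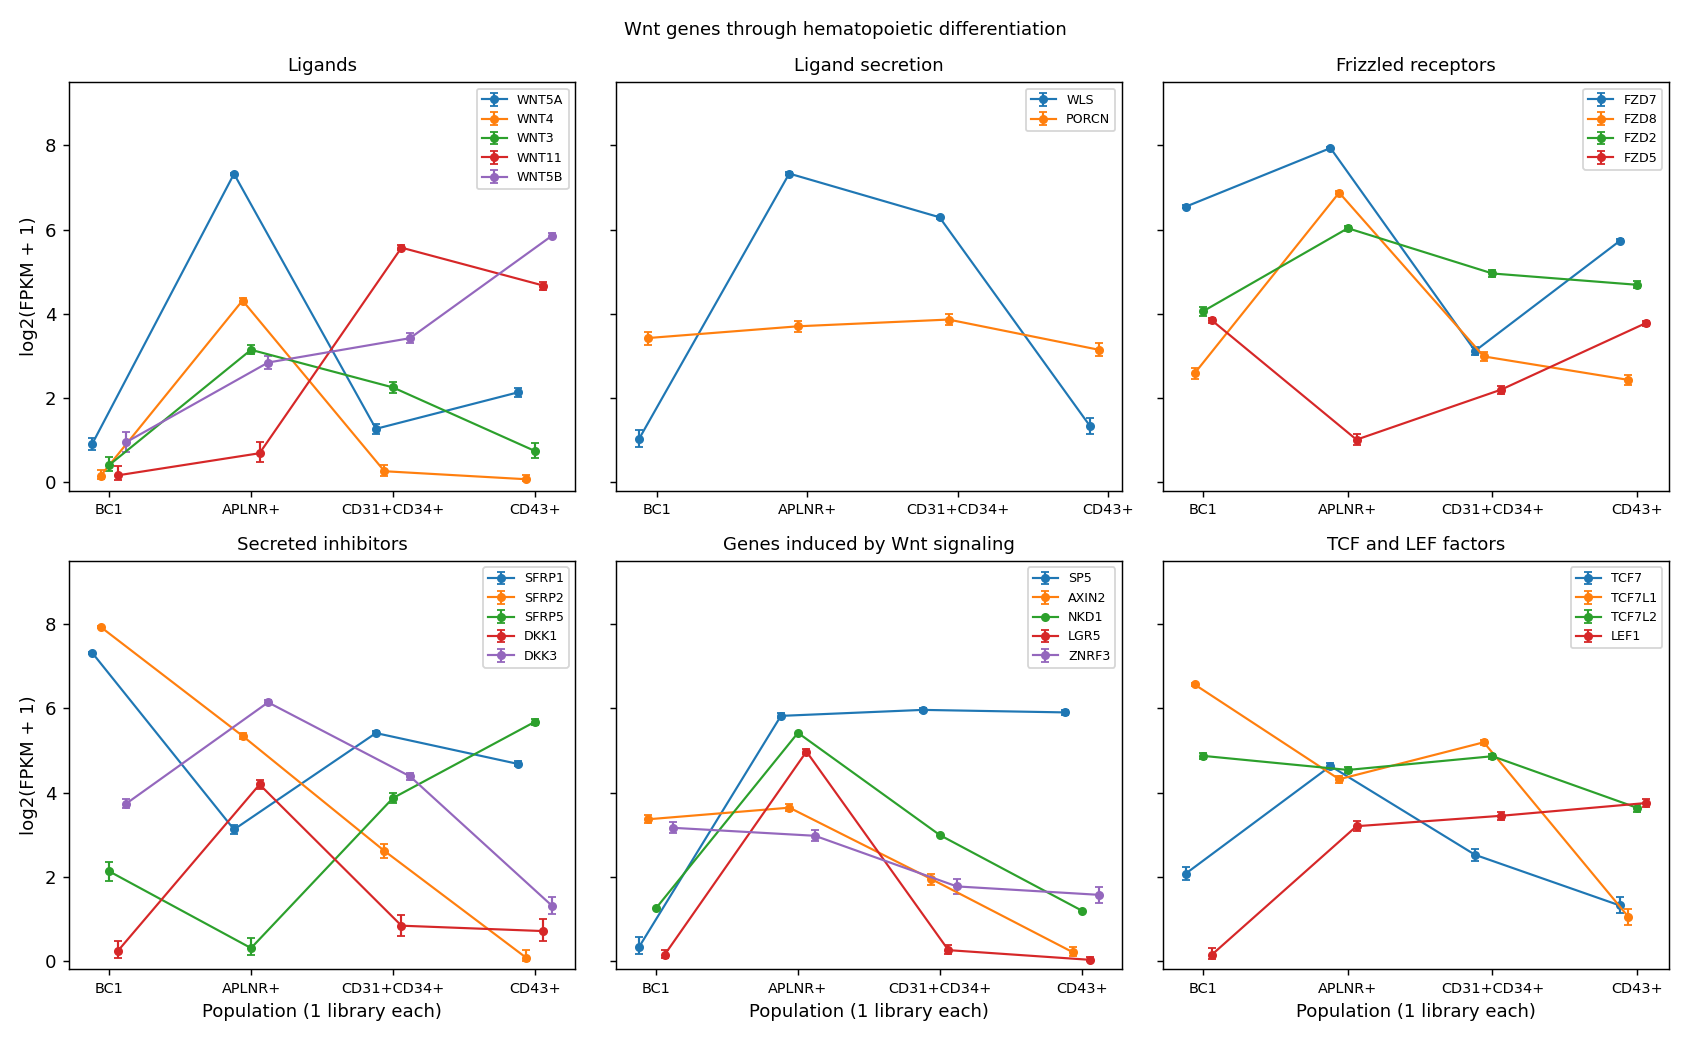
Level of selected Wnt genes as log2(FPKM + 1) across the 4 libraries, 1 panel per role, with points shifted sideways for legibility and bars for exact Poisson 95% intervals of the approximate fragment count (none for NKD1). WNT5A, WNT11 and WNT5B reach their highest levels in different libraries, and SP5 stays near 6 after its rise.

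The Frizzled receptors were led by FZD7 in every library except CD31+CD34+, where FZD2 led. The 10 Frizzled genes summed to 146 FPKM in BC1, 451 in APLNR+ cells, 67.1 in CD31+CD34+ cells and 109 in CD43+ cells. All 12 receptor genes reached 1 FPKM somewhere. Of these, 5 rose and 1 fell at the first transition, 1 rose and 4 fell at the second, and 2 rose and 1 fell at the third. As shares of the 12, the rises were 41.7%, 8.33% and 16.7%, against 9.15%, 13% and 7.63% of all genes tested. The falls were 8.33%, 33.3% and 8.33%, against 9.32%, 11.4% and 13.5%.

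FZD7, a main Frizzled receptor of human pluripotent cells, was at 92.6 FPKM in BC1, 244 in APLNR+ cells, 7.70 in CD31+CD34+ cells and 52.1 in CD43+ cells. Its level in CD31+CD34+ cells was the lowest, with higher levels on both sides. It rose 2.64-fold (2.57 to 2.72), fell 31.7-fold (29.3 to 34.3) and rose 6.77-fold (6.23 to 7.36). Its share of the Frizzled sum was 63.3%, 54.2%, 11.5% and 48.0% in the same order.

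FZD8 was at 5.01 FPKM in BC1, 117 in APLNR+ cells, 6.95 in CD31+CD34+ cells and 4.40 in CD43+ cells. Like WNT5A it was high in APLNR+ cells alone, with a rise of 23.3-fold (21.0 to 25.9) and a fall of 16.8-fold (15.5 to 18.3). FZD5 took the opposite course, at 13.4, 1.02, 3.60 and 12.7 FPKM, and was lowest in APLNR+ cells. It fell 13.1-fold (11.0 to 15.7), and its level in CD43+ cells could not be told from that in BC1 by counting error, as the ratio was 1.05 (0.982 to 1.12).

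FZD2 was at 15.7 FPKM in BC1, 64.6 in APLNR+ cells, 30.1 in CD31+CD34+ cells and 24.8 in CD43+ cells. It rose 4.11-fold (3.75 to 4.51) and then fell 2.14-fold (2.00 to 2.29), and at 44.9% it was the largest part of the Frizzled sum in CD31+CD34+ cells. FZD4, a receptor of endothelial cells, was at 2.15, 8.32, 6.84 and 4.70 FPKM and rose once, by 3.88-fold (3.41 to 4.40). FZD4 shares 1399 of its 7383 exonic bases with PRSS23 on the other strand, so its values are uncertain. FZD1 was at 0.409, 3.37, 2.00 and 0.714 FPKM, with a rise at the first transition and changes under the threshold at the later ones, the last of which, at -0.81 on the log2 scale, reached -1.37 with a pseudocount of 0.1.

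Among the other Frizzled genes, FZD9 alone passed the threshold, and it did so once. FZD3 was at 8.42 FPKM in BC1, 5.84 in APLNR+ cells, 2.49 in CD31+CD34+ cells and 2.04 in CD43+ cells, lower at each stage with no step past the threshold, although the second, at -0.97 on the log2 scale, reached -1.01 with size factors and -1.20 with a pseudocount of 0.1. FZD6 was at 4.88, 2.58, 3.83 and 6.41 FPKM and also passed it nowhere. FZD9 was at 3.54, 3.97, 2.47 and 0.608 FPKM, with a fall of 4.06-fold (2.66 to 6.43) into CD43+ cells. FZD10 was at 1.11 FPKM in CD31+CD34+ cells and below 1 FPKM in the other libraries. Its level there was 9.03-fold higher (4.35 to 21.6) than in APLNR+ cells and 18.0-fold higher (6.79 to 68.0) than in CD43+ cells, although on the log2 scale these changes, of 0.91 and -0.99, lay just inside the threshold.

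Of the coreceptors, LRP5 was at 17.2 FPKM in BC1, 22.0 in APLNR+ cells, 9.44 in CD31+CD34+ cells and 11.4 in CD43+ cells. It fell 2.33-fold (2.16 to 2.50) at the second transition. LRP6 was at 10.9, 8.73, 5.90 and 6.26 FPKM and passed the threshold nowhere. LRP5 was the higher of the pair in every library, with 61.1% to 71.6% of their summed FPKM.

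Among the R-spondin receptors, which keep Frizzled proteins on the surface by removing ZNRF3 and RNF43, LGR5 was high in APLNR+ cells alone. It was at 0.106 FPKM in BC1, 30.4 in APLNR+ cells, 0.196 in CD31+CD34+ cells and 0.0194 in CD43+ cells. The rise was 287-fold (152 to 633) and the fall 155-fold (101 to 255). LGR4, the receptor with the widest expression, was at 14.4, 39.0, 17.6 and 16.1 FPKM. It also peaked in APLNR+ cells, but at 2.71-fold over BC1 (2.55 to 2.88), and it was above 14 FPKM in all 4 libraries. LGR6 was at 1.11, 0.0718, 0 and 0.0210 FPKM, and its change of -0.98 on the log2 scale at the first transition was just under the threshold.

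RSPO4 was the R-spondin with the highest level in every library, at 5.83 FPKM in BC1, 4.12 in APLNR+ cells, 5.63 in CD31+CD34+ cells and 3.33 in CD43+ cells. It passed the threshold nowhere, while RSPO1, RSPO2 and RSPO3 stayed at or below 0.297 FPKM. The LGR5 level in APLNR+ cells therefore stood beside a low and nearly level R-spondin sum of 4.41 FPKM in the same library.

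**Figure D4:**
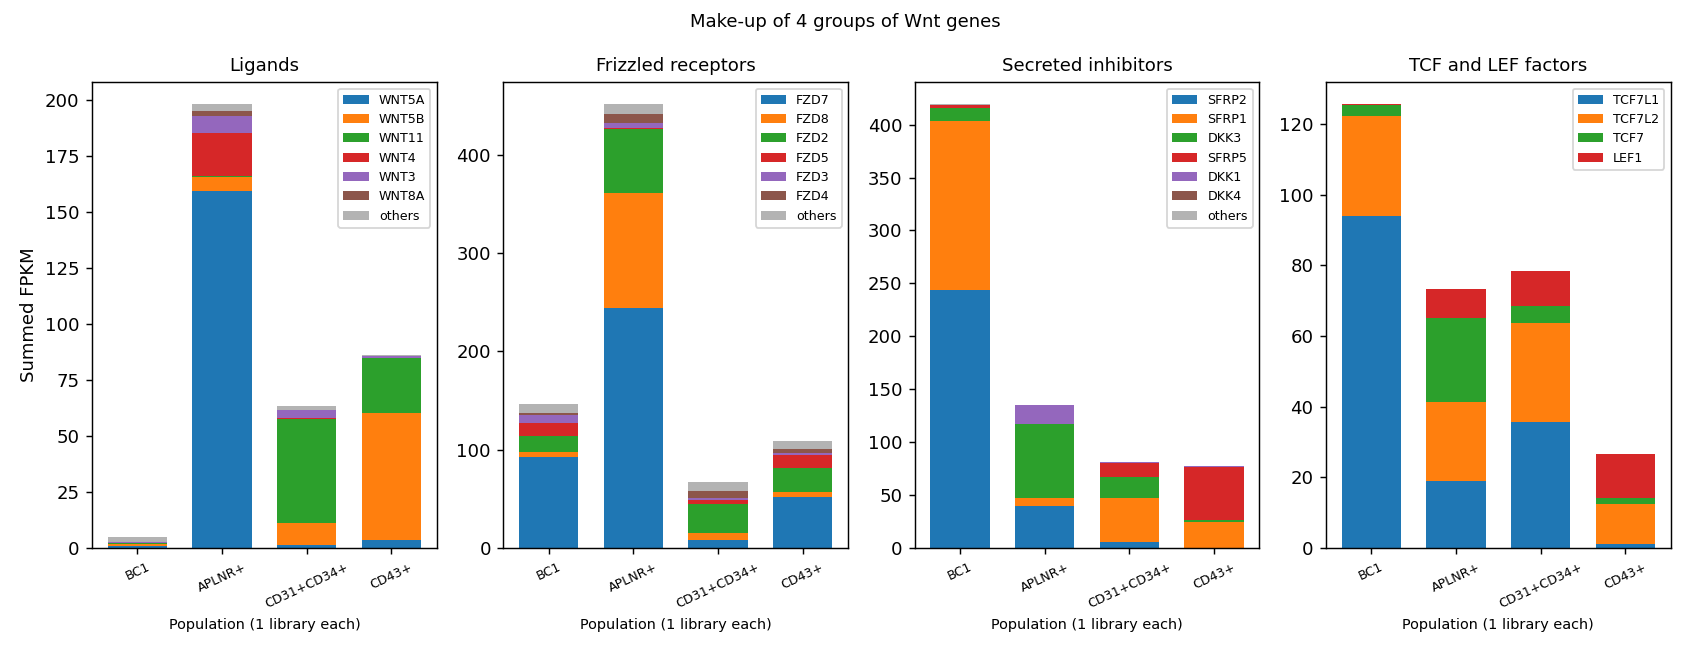
Summed FPKM of the ligands, Frizzled receptors, secreted inhibitors and TCF and LEF factors in each library (bars from 0), split by gene, with a separate scale for each panel. The ligand bar passes from WNT5A in APLNR+ cells to WNT11 in CD31+CD34+ and WNT5B in CD43+ cells, while the sum of the DKK and SFRP genes, the secreted inhibitors plotted, is highest in BC1, at 419 FPKM.

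The plot of summed levels shows the exchange of members inside each role. The 8 measured secreted inhibitors, all of them DKK or SFRP genes, summed to 419 FPKM in BC1, 135 in APLNR+ cells, 81.4 in CD31+CD34+ cells and 77.2 in CD43+ cells. The ligand sums in the same libraries were 4.63, 198, 63.2 and 86.3 FPKM. These inhibitor sums leave out secreted antagonists of other families, and their order between libraries and against the ligands holds for the DKK and SFRP genes alone. CER1 was at 2.50 FPKM in BC1 and 2991 in APLNR+ cells, and SOST and IGFBP4 were highest in CD31+CD34+ cells, at 154 and 725 FPKM.

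The secreted Frizzled-related proteins, which bind Wnt proteins outside the cell, each kept a course of their own. SFRP2 was at 244 FPKM in BC1, 39.7 in APLNR+ cells, 5.12 in CD31+CD34+ cells and 0.0530 in CD43+ cells, falling at every transition. The last of these falls ended at 1 to 3 fragments, for a ratio of 96.7 (26.5 to 806). SFRP1 was at 159 FPKM in BC1, 7.72 in APLNR+ cells, 41.6 in CD31+CD34+ cells and 24.7 in CD43+ cells, so its minimum was in APLNR+ cells. SFRP5 was at 3.38, 0.237, 13.6 and 50.3 FPKM, also lowest in APLNR+ cells, but highest in CD43+ cells. SFRP5 rose 57.5-fold (28.8 to 133) and then 3.69-fold (3.34 to 4.09), and it made up 65.2% of the DKK and SFRP sum in CD43+ cells. FRZB, counted with the other pathway genes below, was at 1.40, 1.11, 1.41 and 0.0804 FPKM. POU5F1, SOX2, NANOG and LIN28A, the pluripotency markers that also fell after BC1, summed to 2555, 733, 119 and 93.2 FPKM. In CD31+CD34+ and CD43+ cells nearly all of the sum was LIN28A, at 117 and 92.9 FPKM, while POU5F1 was at 1.87 and 0.235. SOX2 was at 0 FPKM in both and NANOG at no more than 0.0346. The part of remaining undifferentiated cells in the SFRP1 and SFRP2 levels was not tested.

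DKK1, which blocks LRP5 and LRP6, was at 0.175 FPKM in BC1, 17.3 in APLNR+ cells, 0.789 in CD31+CD34+ cells and 0.637 in CD43+ cells. It rose 98.6-fold (43.9 to 319) and fell 21.9-fold (15.1 to 33.5), and its promoter is the first of those shown above. DKK3, a divergent member of the family, was at 12.3, 69.7, 19.9 and 1.49 FPKM. It rose 5.65-fold (5.17 to 6.18), fell 3.50-fold (3.27 to 3.75) and fell again by 13.4-fold (10.6 to 17.1). DKK3 made up 51.5% of the DKK and SFRP sum in APLNR+ cells, where SFRP1 made up 5.71%.

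The inhibitors inside the cell include genes that the pathway itself induces. AXIN2, an inducible scaffold of the destruction complex, was at 9.30 FPKM in BC1, 11.5 in APLNR+ cells, 2.85 in CD31+CD34+ cells and 0.151 in CD43+ cells. It did not pass the threshold at the first transition, with a ratio of 1.23 (1.12 to 1.36), and it fell 4.02-fold (3.52 to 4.63) and then 18.9-fold (10.8 to 35.9). AXIN2 shares 1316 of its 5226 exonic bases with AC004805.1 on the same strand, so its values are uncertain, although AC004805.1 was given no more than 6.11e-24 FPKM. AXIN1, the constitutive form, was at 29.3, 33.9, 17.7 and 26.4 FPKM and passed the threshold nowhere.

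NKD1, a feedback inhibitor that binds Dishevelled, was at 1.38 FPKM in BC1, 41.8 in APLNR+ cells, 6.95 in CD31+CD34+ cells and 1.29 in CD43+ cells. Unlike AXIN2 it rose at the first transition, by 4.17 on the log2 scale, and then fell by 2.43 and 1.79. NKD2 was at 6.81, 4.85, 10.4 and 2.61 FPKM, highest in CD31+CD34+ cells, and fell 3.97-fold (3.21 to 4.95) at the third transition. ZNRF3, a ubiquitin ligase that removes Frizzled proteins and is itself a target, was at 7.96, 6.86, 2.41 and 1.97 FPKM, with a fall of 2.84-fold (2.34 to 3.48) into CD31+CD34+ cells. RNF43, its partner, stayed at or below 0.629 FPKM, and most of its exonic bases are shared with other genes, so these values are uncertain.

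In the nucleus the TCF or LEF gene with the highest level changed at each transition, although its lead in APLNR+ and CD43+ cells was narrow. The 4 factors summed to 126 FPKM in BC1, 73.1 in APLNR+ cells, 78.4 in CD31+CD34+ cells and 26.5 in CD43+ cells. TCF7L1 led in BC1 with 74.8% and in CD31+CD34+ cells with 45.4%, TCF7 led in APLNR+ cells with 32.5%, and LEF1 led in CD43+ cells with 47.1%.

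TCF7L1, mostly a repressor in pluripotent cells, was at 93.9 FPKM in BC1, 18.9 in APLNR+ cells, 35.6 in CD31+CD34+ cells and 1.07 in CD43+ cells. It fell 4.96-fold (4.65 to 5.30), was 1.88-fold higher (1.75 to 2.02) in CD31+CD34+ cells and then fell 33.3-fold (26.0 to 43.7). TCF7, mostly an activator, was at 3.22, 23.8, 4.74 and 1.50 FPKM, and it was high in APLNR+ cells alone. It rose 7.38-fold (6.30 to 8.67), and its second promoter is shown above. LEF1, also an activator, was at 0.110, 8.20, 9.92 and 12.5 FPKM, a rise of 74.2-fold (34.3 to 206) that was followed by no fall. TCF7L2 was at 28.3, 22.2, 28.1 and 11.5 FPKM, with a fall of 2.45-fold (2.27 to 2.65) into CD43+ cells. TCF7 shares 210 of its 10063 exonic bases with SKP1 on the other strand, which was at 142 to 192 FPKM, so the TCF7 values are uncertain. LEF1 shares 279 exonic bases with LEF1-AS1, at no more than 1.33 FPKM.

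SP5 (ENSG00000204335.3, chr2:170715351-170718078, plus strand), a zinc finger factor that beta-catenin signaling induces, was at 0.258 FPKM in BC1, 55.6 in APLNR+ cells, 61.4 in CD31+CD34+ cells and 58.9 in CD43+ cells. It rose 216-fold (112 to 468) and then stayed level, with ratios of 1.11 (1.04 to 1.17) and 1.04 (0.985 to 1.10) at the later transitions. SP5 and LEF1 kept their levels in CD43+ cells, where AXIN2, NKD1, LGR5 and TCF7 were between 0.0194 and 1.50 FPKM. All 6 of these genes are known to respond to beta-catenin signaling in at least some cells.

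Other genes of the pathway were counted from a list of 57 measured genes, 55 of which reached 1 FPKM. Of those, 9 rose and 4 fell at the first transition, 3 rose and 14 fell at the second, and 1 rose and 13 fell at the third, to be read against the shares of all genes given above. Their median changes on the log2 scale were 0.14, -0.28 and -0.45. SOST passed the filter through CD31+CD34+ cells alone and WIF1 through BC1 alone, so the filter favored their changes around those libraries. CTNNB1, which encodes beta-catenin, was at 105, 91.6, 137 and 74.9 FPKM and passed the threshold nowhere. The largest rises at the first transition were in CER1, a secreted antagonist of Nodal, BMP and Wnt, from 2.50 to 2991 FPKM, in ROR2, a WNT5A receptor, from 1.36 to 78.3, and in NOTUM, which removes the Wnt lipid, from 0.417 to 16.5. Among genes with at least 5 FPKM in BC1, the glypicans GPC3 (62.5 to 9.23 FPKM) and GPC4 (63.2 to 24.8) fell most there. The polarity gene CELSR2 was next, from 9.63 to 3.69 FPKM.

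ROR2 thus rose with its ligand WNT5A, and both fell at the second transition, ROR2 to 8.31 FPKM. The same transition took CER1 to 0.0905 FPKM and DACT1, a Dishevelled-binding protein, from 15.7 to 1.38. The largest rises were in SOST, which blocks LRP5 and LRP6, from 0.0914 to 154 FPKM, IGFBP4, which binds LRP6 and Frizzled proteins, from 102 to 725, and the polarity gene PRICKLE1, from 4.48 to 21.5. At the third transition SOST fell to 0.505 FPKM, IGFBP4 to 29.0 and the corepressor TLE2 from 35.5 to 1.90, while PRICKLE1 rose to 52.7. The next largest positive changes, in APC (7.67 to 11.5 FPKM) and TLE4 (17.1 to 24.3), were under the threshold. The 5 endoderm markers summed to 12.3, 32.2, 13.9 and 0.375 FPKM across the libraries, with SOX17 at 16.6 and FOXA2 at 0.588 in APLNR+ cells, and their part in the CER1 and DKK1 levels was not tested.

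Genes known to respond to Wnt and beta-catenin outside the pathway itself were counted from a list of 20, of which 17 reached 1 FPKM. Here 12 rose and 0 fell at the first transition, 2 rose and 9 fell at the second, and 1 rose and 8 fell at the third. As shares of the 17, the rises were 70.6%, 11.8% and 5.88%, against 9.15%, 13% and 7.63% of all genes tested. The falls were 0%, 52.9% and 47.1%, against 9.32%, 11.4% and 13.5%. The median changes on the log2 scale were 3.51, -1.17 and -0.76, and over all 20 genes they were 2.89, -0.74 and -0.46. MIXL1 and T passed the filter through APLNR+ cells alone and TNFRSF19 through CD31+CD34+ cells alone. The filter thus favored their rise and fall around those libraries. MIXL1, MESP1 and T are also mesoderm markers, and activin and BMP, which these cultures received, are known to induce them. The largest rises were in MIXL1, from 0.931 to 474 FPKM, and MESP1, from 0.0963 to 96.8. At the low end were JAG1, CCND1 and MYC, with changes of -0.86, 0.50 and 0.70 on the log2 scale, all under the threshold. MIXL1 then fell to 0.982 FPKM, MESP1 to 1.05 and T, the brachyury gene, from 12.2 to 0.0563, while CD44 rose from 13.1 to 97.5 and JAG1 (0.72) and MSX1 (-0.12) stayed under the threshold. At the third transition CD44 fell to 14.3 FPKM and the cyclin gene CCND1 from 93.0 to 14.2. MYC rose from 57.9 to 141 FPKM, and BAMBI (0.20) and MSX1 (0.19) were next in that direction, under the threshold.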

How the data were processed

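Total RNA of 4 BC1 populations, 1 library each, was prepared with an Illumina TruSeq RNA kit. The authors deposited 1 table of gene-level FPKM values, in which every expression column was assigned to a population by its name. The submitters' processing notes name BWA, Bowtie, RSEM and hg19 with no roles, and which program made the FPKM and whether it used strand is not given in the sources used here. Of the 58365 rows, 55723 carried a versioned identifier of GENCODE release 29, and 55629 of these had the same chromosome, start and end, so loci are given on GRCh38, counted from 1. Rows of the 90 identifiers found more than once were summed, WNT5A among them.

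Values were taken as log2(FPKM + 1), a scale that understates changes of low genes. A gene entered the counts when any library reached 1 FPKM (17137 genes, called genes tested although no test between populations was possible), and a change of at least 1 was counted. The Wnt genes and lists were chosen with earlier results of these data known. Levels are given for every Wnt gene with at least 5 FPKM in a library or a counted change. From the other lists, the 3 largest changes in each direction and transition are given, provided the higher library reached 5 FPKM, and cell type markers are given as sums and ranges, with single markers named after their values were seen. A gene of the Wnt target list is included in its counts and medians and is not reported by name here.

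Depth was fitted so that FPKM times transcript length, less a constant, gave whole fragments. This came within 0.1 of an integer for 84.2% to 86.1% of the low values in a library. Fragments per gene used the principal transcript of GENCODE, less 275 bases, and are approximate. Fold intervals are exact Clopper-Pearson 95% intervals, levels in the plot have exact Poisson 95% intervals, and a library with 0 fragments was set to a floor of 3. No interval is given for NKD1, whose annotated principal transcript is very long. The counting and interval steps were tested on simulated data. Analyses used Python 3.11.15, pandas 2.3.3, numpy 2.4.6, scipy 1.17.1 and matplotlib 3.10.9. The alternatives were another pseudocount, filter, threshold, scaling and choice of rows, and the count of FRZB as SFRP3, which was chosen after seeing the data.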

Additional observations from a re-analysis of the deposited data

How the results depend on the processing

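With a threshold of 2 in place of 1 on the log2(FPKM + 1) scale, 12 of the 40 Wnt genes rose in place of 20 at the first transition, against 2.68% of all genes tested. At the second, 9 fell in place of 18, against 3.15%. At the third, 2 rose and 4 fell in place of 4 and 11, against 2.28% and 4.32%. With values rescaled to TPM, 7 of 43 rose in place of 4 at the second transition, against 15% of all genes tested. The additions were WNT9B, FZD10 and NKD2, and the median of all genes tested at the third transition moved to -0.17. All other counts of Wnt genes stayed within 1.5 times their value under these settings and under a pseudocount of 0.1, no filter, a filter of 5 FPKM, size factors, the highest row of each identifier and FRZB counted as SFRP3, which was added after seeing the data. No Wnt gene that rose or fell changed direction under any of them. A filter of 5 FPKM removed WNT6, WNT8A, FZD1 and FZD9 from the counts. With a pseudocount of 0.1 there were 10 further changes past the threshold, and the shares of all genes tested were also higher, between 11.1% and 20.4%. WNT11 rose (1.69) and LGR6 fell (-2.82) at the first transition. At the second, FZD10 (2.44) and NKD2 (1.08) rose, and WNT3 (-1.04) and FZD3 (-1.20) fell. At the third, WNT5A rose (1.21), and FZD10 (-2.91), FZD1 (-1.37) and LGR5 (-1.31) fell. Among the genes that respond to Wnt, a pseudocount of 0.1 gave 1 fall in place of 0 at the first transition and 2 rises in place of 1 at the third, and size factors gave 1 rise in place of 2 at the second. No paired analysis was possible because each population had 1 library, and for the same reason none could be left out. Variation between cultures and sorts was not measured, and at this depth a level below about 0.1 FPKM rests on a few fragments.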

Other observations

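Among the pathway genes counted above, some were examined after their values were seen. The 3 Dishevelled genes, which relay the Frizzled signal, were each highest in APLNR+ cells without passing the threshold. DVL1 was at 54.5 FPKM in BC1, 103 in APLNR+ cells, 59.4 in CD31+CD34+ cells and 52.1 in CD43+ cells, DVL2 at 39.3, 79.1, 51.8 and 59.7, and DVL3 at 46.5, 81.0, 57.5 and 32.7. DVL1 to DVL3 thus peaked in the library where the Frizzled sum was also highest.

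The TLE corepressors, which bind TCF and LEF factors, differed from each other. TLE1 was at 41.0 FPKM in BC1, 32.7 in APLNR+ cells, 6.43 in CD31+CD34+ cells and 6.66 in CD43+ cells, and it fell once, at the second transition. TLE3 was at 14.4, 98.2, 25.8 and 15.6 FPKM and was high in APLNR+ cells alone, with TCF7. TLE4 was at 7.31, 12.4, 17.1 and 24.3 FPKM, with no change past the threshold. DAAM1, a formin that acts downstream of Dishevelled in cell polarity, was at 9.45, 40.2, 49.7 and 63.6 FPKM, so like LEF1 and SP5 it rose at the first transition and did not fall later.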
